A study of Mus musculus with 11 samples.

Results

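The baseline transcriptome of the chow-fed wild-type mouse aorta was described from the 4 libraries that the labels call WT_CD, numbered 1 to 4, out of 11 libraries in the series. They were chosen by that label alone, and all other libraries, which come from mice given a high-fat diet with L-NAME, with or without Mpst, were not used. The chow mice were wild type on the C57BL/6J background and ate chow with 10% of calories from fat for 15 weeks, and no inhibitor is named for them. Aortas were taken whole, from arch to abdomen, and freed of perivascular fat before RNA was isolated with TRIzol and made into libraries with the NEBNext Ultra II kit, per the labels' protocols. The labels do not say that each library came from a separate mouse, so the spread between the 4 libraries may be partly technical. No groups were compared, and the text gives levels, rank order, the leading members of gene families and the spread between libraries.

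The wall of the aorta has an inner endothelium, a media of smooth muscle cells between sheets of elastin, and an outer adventitia of fibroblasts and collagen with nerves and small vessels. Medial smooth muscle in its contractile state makes smooth muscle actin, smooth muscle myosin and the proteins that regulate them, and together with fibroblasts it makes the elastic and collagenous matrix that bears pulse pressure. Endothelial cells release nitric oxide, which raises cyclic GMP in the muscle and relaxes it.

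Levels of 1 gene across libraries are given as CPM, a gene's counts scaled to the same total in each library without Rn45s (the ribosomal RNA precursor), and levels of different genes are compared as TPM, which also divides by exon length. Where 4 values follow each other they are in the order WT_CD_1, WT_CD_2, WT_CD_3 and WT_CD_4, and errors are SD with n = 4. The libraries held 8665968, 11050391, 13136166 and 13300136 counts, of which Rn45s took 10.1, 17.4, 2.58 and 0.855%. Without it, 3 counts corresponded to between 0.228 and 0.385 CPM.

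The libraries were not alike, and WT_CD_3 stood apart from the rest. Across the 9036 genes with a mean of 10 CPM or more, Spearman's rho between libraries ran from 0.785 for WT_CD_1 with WT_CD_3 to 0.965 for WT_CD_2 with WT_CD_4; this is across genes, which are not independent replicates. The median gene lay -0.28 from its own mean on the log2 CPM scale in WT_CD_3 and between 0.08 and 0.10 in the other libraries. WT_CD_3 held the most adipocyte and mitochondrial transcripts and the fewest smooth muscle transcripts, while WT_CD_1 held the fewest adipocyte and red cell transcripts and had kidney and liver transcripts that the others nearly lacked. Values are therefore given per library, and the main ones also without WT_CD_3. In RNA from a whole tissue, fewer cells of a type and less RNA per cell cannot be told apart.

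The defining genes of the vessel wall were present in every library. Acta2 (smooth muscle alpha-actin, Entrez 11475, chromosome 19, 34240336 to 34255585 in GRCm38.p6) had 14263, 14954, 4689 and 12426 CPM. Myh11, the smooth muscle myosin heavy chain, had 5359.6, 6091, 2163 and 4716 CPM. In both genes WT_CD_3 was the lowest library by a wide margin and the other libraries lay close together; without WT_CD_3 the means were 13881 ± 1307 CPM and 5389 ± 688 CPM (SD, n = 3). Eln, which encodes elastin, had 3894, 3604, 1035 and 2530.1 CPM, again lowest in WT_CD_3. Dcn, the fibroblast proteoglycan decorin, had 1701, 1070.3, 1074 and 1971 CPM, with WT_CD_2 and WT_CD_3 low and WT_CD_1 and WT_CD_4 high. Pecam1, an adhesion molecule of endothelial cells, had 83.5, 225, 145 and 210.1 CPM and was lowest in WT_CD_1, not in WT_CD_3.

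A small number of transcripts made up much of the RNA. Of 27179 genes in the table, 8000 had no count in any of the 4 libraries and 13112 had a mean of 1 CPM or more. The 8 genes with a mean of 10000 CPM or more held 16.02% of all counts on mean CPM, the 79 genes from 1000 to 10000 CPM held 18.1%, and the 1566 genes from 100 to 1000 CPM held 37.2%. In rank order of mean CPM, the first 394 genes held 50% of all counts. Counted within each library, 50% of the counts lay in 371, 436, 206 and 453 genes, so WT_CD_3 was the most concentrated library.

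The most abundant transcripts came from the mitochondrial genome, which encodes subunits of the respiratory chain and both ribosomal RNAs of the organelle. Its share of counts was 16.1, 9.36, 23.9 and 10.8%, highest in WT_CD_3 and lowest in WT_CD_2, with a mean of 15.02% ± 6.58. CYTB, the cytochrome b subunit of complex III, led all genes in every library, with 39144, 22819, 60837 and 28037 CPM and a mean level of 79818 ± 28660.3 TPM. Next by TPM were the complex I subunit ND1 with 57075 ± 19945 TPM and the complex IV subunit COX1 with 47569 ± 17632 TPM. Other subunits encoded on the same molecule were listed far lower. COX2 had 91.8 ± 61.3 CPM, COX3 60.5 ± 24.6 CPM and ATP6 195 ± 189 CPM, and ATP8 and ND4L had means of 0.933 and 1.17 CPM. Neighbouring mitochondrial genes are transcribed in 1 long precursor, and the cause of the gap between their counts was not tested; how reads with several alignments were counted is not stated.

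Among nuclear genes, ranked by mean TPM, the first places were held by Hbb-bs, Acta2, Tagln, Myl9, Tmsb4x and Mgp, that is by an adult beta-globin of red cells, by contractile and actin-binding proteins, and by an inhibitor of calcification. Tagln (transgelin, an actin-binding protein of smooth muscle) had 9876, 10866, 3489 and 10409 CPM, a mean of 11087 ± 4906 TPM. Myl9, the regulatory light chain of smooth muscle myosin, had 5426, 5012, 1743 and 4844 CPM, a mean of 9311 ± 4054 TPM. In both genes WT_CD_3 lay far below the other libraries, which were close to one another.

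Mgp, the matrix Gla protein that keeps the arterial wall from mineralizing, had 4194, 5259, 2109 and 4715 CPM, a mean of 8699.6 ± 3434 TPM. Tmsb4x, which binds actin monomers, had 5320.1, 5879, 2207 and 5809 CPM. Igfbp7, an IGF-binding protein secreted by vascular cells, ranked 9 with 2793, 3067, 1031 and 2904 CPM. All 3 were lowest in WT_CD_3 and tight in the other libraries. Further down this list stood the ribosomal proteins Rplp1 and Rps15, the protease inhibitor Cst3 (cystatin C), the lectin Lgals1, the intermediate filament protein Vim, the translation factor Eef1a1 and Csrp1, a LIM protein of smooth muscle, with means between 2624 and 5275 TPM.

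**Figure D1:**
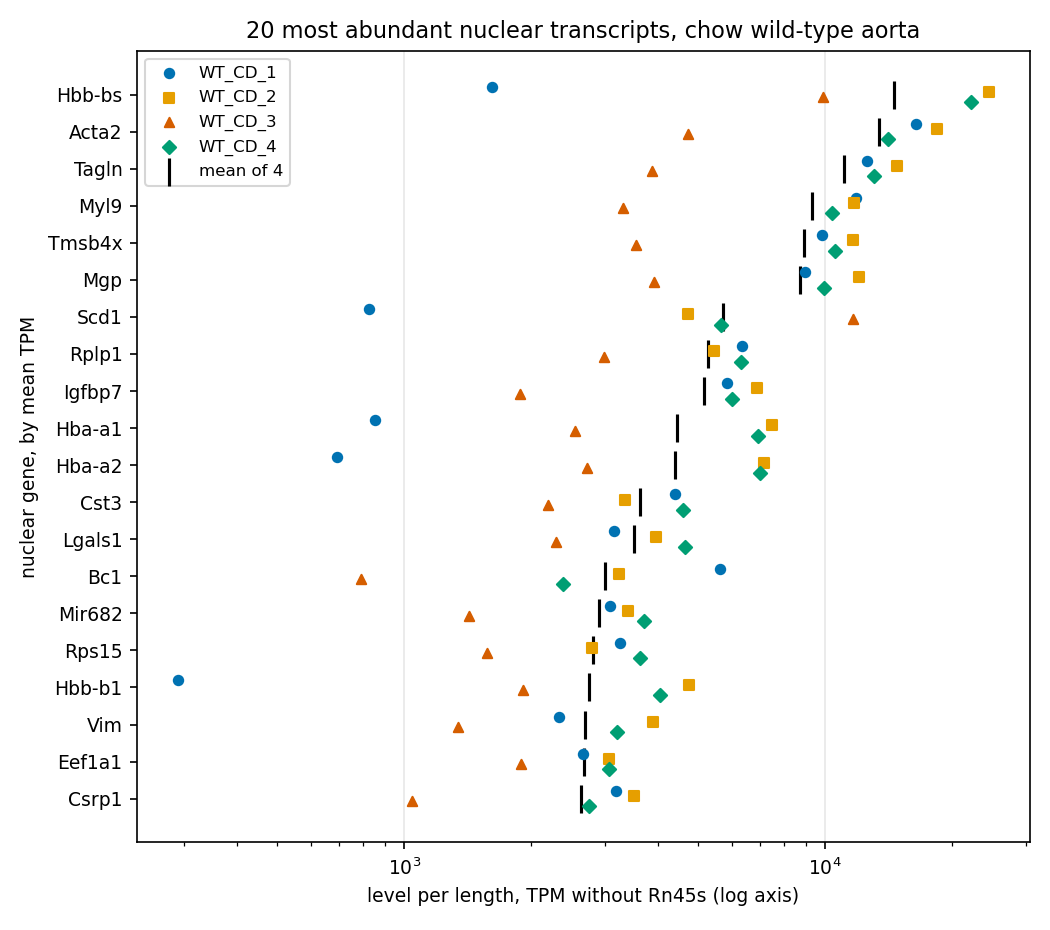
Level per length (TPM without Rn45s, log axis) of the 20 nuclear genes of highest mean TPM, with 1 point per library and a bar at the mean of the 4 libraries. WT_CD_3 lies lowest for Acta2, Tagln, Myl9, Tmsb4x and Mgp and highest for Scd1, and WT_CD_1 lies lowest for the globin genes and Scd1.

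The plot of the 20 most abundant nuclear transcripts shows that the rank order depended on the library. Hbb-bs had 1617, 24509.8, 9904 and 22192 TPM and Acta2 16468, 18467, 4710.03 and 14111 TPM, so Hbb-bs exceeded Acta2 in every library except WT_CD_1. Scd1, a desaturase of fatty acid synthesis that is abundant in fat, had 827, 4727, 11634 and 5667 TPM and exceeded both in WT_CD_3. It had 1595, 8527, 25803 and 11116 CPM, a span of 16.2-fold. Of the 20 nuclear genes of highest TPM in each library, 7 were common to all 4 libraries and 11 to WT_CD_1, WT_CD_2 and WT_CD_4. On means without WT_CD_3, Acta2 ranked first among nuclear genes by TPM, and 19 of the 20 genes in the plot were still among the first 20.

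Globin transcripts come from red cells and their precursors. Hbb-bs had 489.7, 6941, 3448 and 6834 CPM, and Hba-a1 and Hba-a2 (alpha-globins) had 273, 2232, 938 and 2256 CPM and 182, 1764, 820.5 and 1868 CPM. WT_CD_1 was lowest for each of them, WT_CD_3 lay between, and WT_CD_2 and WT_CD_4 were nearly equal. A stretch of 50 bases often cannot separate these copies: 87.1% of the 50-base windows in the Hba-a1 coding sequence were also in Hba-a2, and 92.9% of those in Hbb-bs were in Hbb-bt, which was not analysed here. Their split is therefore uncertain. Hbb-b1, another beta-globin entry, had a mean of 895 CPM without WT_CD_3, and its sequence was not part of this comparison. The stretches around the 1 coding base that differs in each pair, counted from the start codon and with that base in capitals, are shown from GENCODE M21 to make this visible. The alpha-globins lie on chromosome 11 and the beta-globins on chromosome 7.
Hba-a1, coding bases 356 to 406: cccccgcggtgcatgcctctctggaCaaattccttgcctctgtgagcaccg
Hba-a2, the same bases: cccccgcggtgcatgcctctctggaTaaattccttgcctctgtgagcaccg
Hbb-bs, coding bases 392 to 442: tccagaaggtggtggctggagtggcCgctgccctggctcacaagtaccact
Hbb-bt, the same bases: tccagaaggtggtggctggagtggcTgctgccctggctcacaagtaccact

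Short non-coding genes also reached the top of the TPM order. Bc1, a small cytoplasmic RNA, had 372, 200.1, 60.2 and 160.2 CPM. Mir682, a microRNA gene of 96 bases on chromosome 13, had 116, 121, 62.05 and 143 CPM, a mean of 2905 ± 1020.2 TPM. Its locus lies inside the predicted pseudogene Gm4149, and these libraries do not select small RNAs, so the reads cannot be assigned to the mature product. That product is shown to tell it from the longer transcript, with the seed (bases 2 to 8) in capitals, at chr13:75645119-75645139 on the plus strand of GRCm38.p6, from RefSeq.
mmu-miR-682: cUGCAGUCacagugaagucug
Rn18s (ribosomal RNA) and Lars2, which encodes the mitochondrial leucyl-tRNA synthetase, had 9552, 14825, 1921 and 652 CPM and 6671, 10433, 2191 and 851 CPM. They followed the order of Rn45s, with WT_CD_2 highest and WT_CD_4 lowest, and were named after their values were seen.

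Members of gene families were compared by their share of the family's summed TPM, for 77 families. The same member led in all 4 libraries in 51 families and in 3 libraries in 15, and in 11 families it led in fewer. The leader held over 50% of the family in 46 families on the mean and in 37 in every library. Without WT_CD_3, 58 families had 1 leader in all 3 libraries, and 4 had another leader by mean TPM (TGF-beta superfamily receptors, glutathione peroxidases, chemokines and regulators of G protein signalling). With 4 libraries, the smallest p of a two-sided exact sign-flip test of 2 members is 0.13 after rounding, so the number of libraries led and the spread of the share are given instead.

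**Figure D2:**
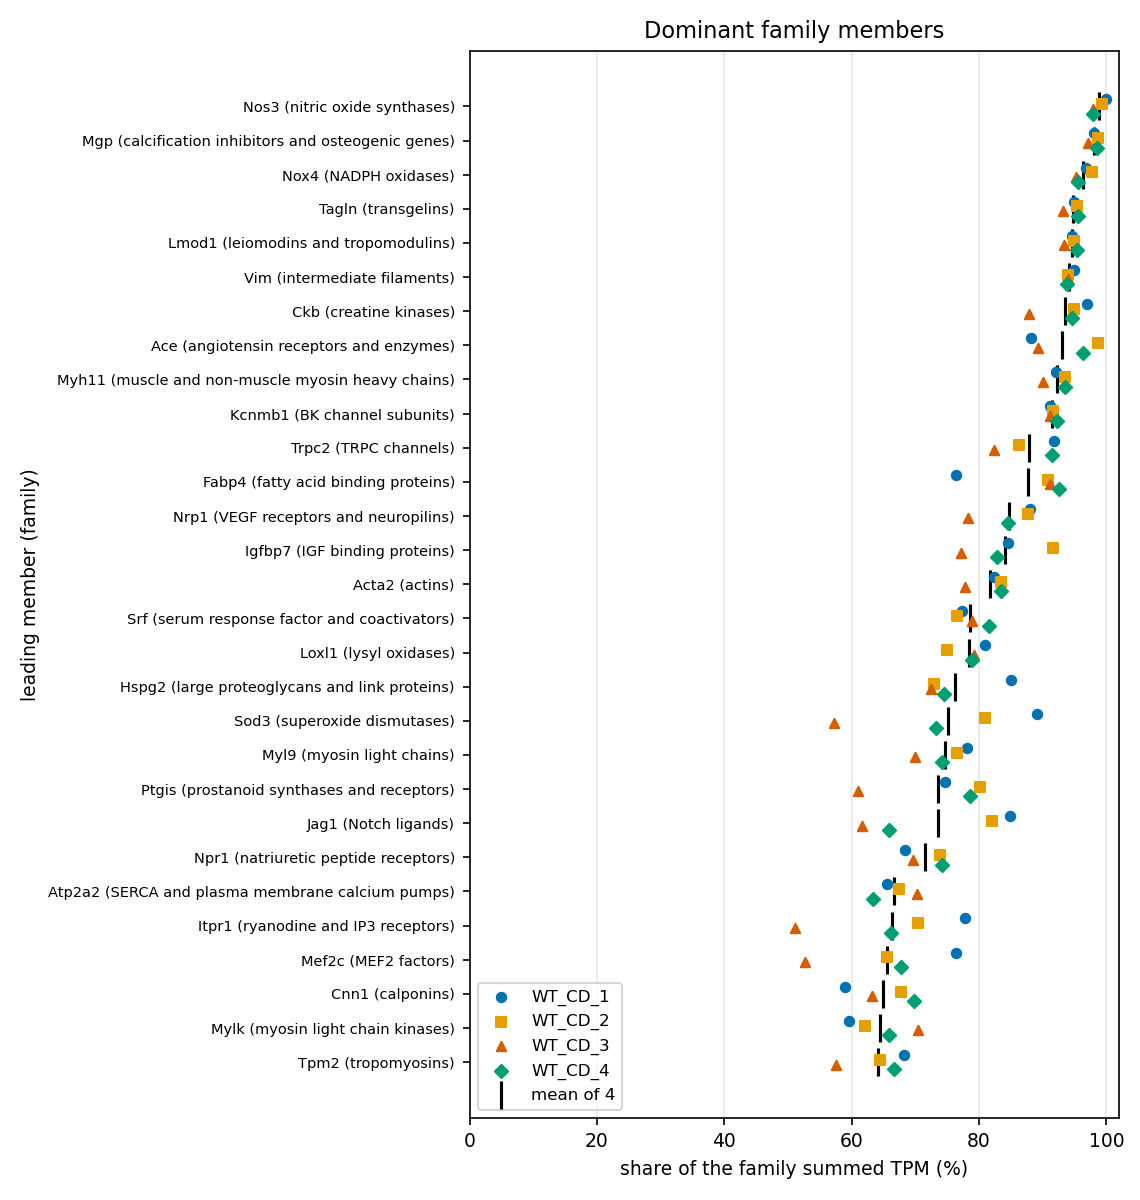
Share of the family's summed TPM held by the leading member, for families of high share among those led by 1 member in all 4 libraries, with 1 point per library and a bar at the mean. Nos3, Mgp, Nox4, Tagln, Lmod1 and Vim stay above 90% in every library, and Sod3, Ptgis and Jag1 spread widely, with WT_CD_3 lowest.

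The contractile apparatus had 1 dominant member at almost every position of the filament, as the plot of dominant family members shows. Acta2 held 81.8% ± 2.74 of the summed TPM of 6 actins, with a range of 77.7% to 83.5%, followed by the cytoplasmic actin Actb at 14.9%. Actg2, the gamma-actin of visceral smooth muscle, had 109, 340.1, 112 and 281 CPM, and the skeletal Acta1 had a mean of 0.862 CPM. Actin coding sequences are alike: Acta1 was 85.4% and Actc1 82.5% identical to Acta2, compared without gaps. Differing bases are spread along the sequence, however, and 0.645% of the 50-base windows of Acta2 were found in another actin. The first 72 coding bases of the alpha-actins of equal coding length are shown from GENCODE M21 to show this, with bases that differ from Acta2 in capitals.
Acta2 (chromosome 19): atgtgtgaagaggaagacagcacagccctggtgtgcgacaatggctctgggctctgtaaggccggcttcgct
Acta1 (chromosome 8, 20 bases differ): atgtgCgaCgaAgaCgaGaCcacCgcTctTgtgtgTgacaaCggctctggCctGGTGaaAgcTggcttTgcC
Actc1 (chromosome 2, 16 bases differ): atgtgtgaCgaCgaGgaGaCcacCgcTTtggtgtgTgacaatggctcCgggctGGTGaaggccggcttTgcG

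Myosin followed the same pattern. Myh11 held 92.3% ± 1.60 of the TPM of 13 myosin heavy chains, and Myh10, a non-muscle chain, was next at 4.47%; Myh3 and Myh8, which belong to developing skeletal muscle, had no count. Myl9 held 74.7% ± 3.58 of the light chains and Myl6, the essential light chain, 21.01%. Among the regulatory proteins, Tagln held 94.8% ± 1.11 of the transgelins and Lmod1, which nucleates actin filaments in smooth muscle, 94.6% ± 0.828 of the leiomodins and tropomodulins. Cnn1, the smooth muscle calponin, held 64.9% ± 4.79 of the calponins, with 1655, 2231, 791 and 2177 CPM. Tpm2 held 64.2% ± 4.67 of the tropomyosins and Tpm1 23.7%. The leader was the same in all 4 libraries in each of these families, while alpha-actinins were shared: Actn1 held 52.6%, 52.5%, 48.7% and 52.7%, and Actn4 held 47.5% on the mean and led in WT_CD_3. Tagln overlaps Pcsk7, which had 21.1 CPM.

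The switch that sets muscle tone, phosphorylation of the myosin light chain, was also uneven in its parts. Mylk, the smooth muscle kinase, led its family with 64.5% ± 4.76, ahead of Mylk4 at 22.5%. Mylk4 overlaps Wrnip1 (36.99 CPM). On the phosphatase side Ppp1r14a, which encodes the inhibitor CPI-17, had 518, 405, 121 and 411 CPM and held 54.5% ± 11.97 of its list. Its share was lowest in WT_CD_3, at 37.3%, and by counts alone the targeting subunit Ppp1r12a was above it. Rhob led Rhoc by a small margin, with shares of 38.98% ± 2.05 and 34.9% for Rhob and Rhoc, and Rhoc led in WT_CD_4; Rhoa had 119 ± 22.2 TPM against 412 ± 125 TPM for Rhob. Srf, the transcription factor that drives contractile genes, had 112, 112, 65.6 and 121 CPM, and its muscle coactivator Myocd 10.3, 22.8, 7.81 and 15.5 CPM.

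Srf acts through the CArG box, named here without its letters because it is degenerate. It was searched on both strands in the 250 bases before each RefSeq start in GRCm38.p6 and does not overlap another searched motif. Of the 68 genes of the contractile lists with a promoter, 10 (14.7%) held the box in any of their promoters. These were Acta1, Actc1, Actg1, Cnn2, Myh4, Myl3, Myl6, Myl7, Myl9 and Srf. Counted by gene as well, 108 of 7246 genes (1.49%) with a mean of 10 CPM or more held it. The contractile lists had no such minimum level, so these 2 shares are of unlike sets. Of the immediate early genes with a promoter, 2 of 15 (13.3%) held the box. The share was 3 of 67 (4.48%) for the 100 nuclear genes of highest TPM. Counted by single promoter, it was in 1.47% of all 32851. The promoters of Myl9, low in WT_CD_3 with the other contractile genes, and of Srf itself are shown with the boxes in capitals, which begin 161 bases before the Myl9 start and 82 and 62 bases before the Srf start.
Myl9, chr2:156775214-156775463, plus strand: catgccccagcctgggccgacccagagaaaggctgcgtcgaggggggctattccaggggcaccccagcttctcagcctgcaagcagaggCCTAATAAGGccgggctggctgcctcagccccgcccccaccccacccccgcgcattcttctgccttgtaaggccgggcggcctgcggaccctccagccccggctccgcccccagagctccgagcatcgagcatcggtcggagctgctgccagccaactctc
Srf, chr17:46556163-46556412, minus strand: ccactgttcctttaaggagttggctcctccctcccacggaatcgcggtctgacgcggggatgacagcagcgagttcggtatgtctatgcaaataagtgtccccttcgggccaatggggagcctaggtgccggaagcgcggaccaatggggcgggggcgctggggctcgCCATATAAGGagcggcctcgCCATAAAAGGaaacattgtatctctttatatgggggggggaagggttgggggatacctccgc
A match describes letters in this window and is not a site. Only exact matches were counted. Myh4 and Acta1, which hold one, were at or near 0 in these libraries. Actc1 and Myl7, which also hold one, had means of 3.18 and 2.05 CPM without WT_CD_3. The window of Acta2 holds no exact match, but stretches close to the box were not counted. Its absence from the count therefore does not show that Acta2 lacks a box.

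Elastic fibre genes were led by Eln, with 872 ± 443 TPM and 63.97% ± 8.92 of the summed TPM of elastin, fibrillins and fibulins. Fbln5, needed to assemble elastic fibres, was next at 11.3% with 451, 451, 222 and 423 CPM. Fbn1, the main fibrillin, had 179, 177, 86.1 and 142 CPM. Of the microfibril-associated genes, Mfap4 held 47.2% ± 4.72 and Ltbp4, which tethers latent TGF-beta and supports elastin assembly, 17.2%, although Ltbp4 had more counts before length was taken into account. Loxl1, a crosslinking enzyme of elastin, held 78.5% ± 2.55 of the lysyl oxidases, and Lox itself had 29.4, 30.9, 18.99 and 26.9 CPM. All of these were lowest in WT_CD_3.

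Collagens were less dominated by 1 gene. Col1a2, Col3a1 and Col1a1, which form the main fibrils of the adventitia and media, had 2126, 1649, 794 and 1753 CPM, 1795, 1121, 542 and 1069 CPM and 1115, 596, 288 and 775 CPM. Each was highest in WT_CD_1 and lowest in WT_CD_3. By TPM Col1a2 held 28.9%, 33.3%, 33.7% and 33.8% of the fibrillar collagens, and Col3a1 led in WT_CD_1. In the basement membrane list Col4a1 held 41.3% ± 4.06 and its partner chain Col4a2, whose gene overlaps it, 32.6%. Col18a1, the source of endostatin, held 44.2% ± 4.48 of the remaining collagens, ahead of Col6a1 and Col6a2.

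Proteoglycans and laminins each had 1 leader. Bgn (biglycan) had 6022, 5597, 2342 and 4986 CPM and held 44.2% ± 5.06 of the small leucine-rich proteoglycans, against 22.4% for Ogn. Hspg2 (perlecan) held 76.3% ± 5.91 of the large proteoglycans, and Vcan (versican) 17.1%. Lamb2 held 63.7% ± 5.87 of the laminin chains. Timp2 and Timp3, inhibitors of matrix metalloproteinases, held 52.1% and 37.8% of their family, and their order turned with the length used. Among the metalloproteinases, Mmp23 and Mmp3 led with 162 ± 62.98 TPM and 160.4 ± 72.7 TPM, each in a pair of libraries, and Mmp2 had 102, 62.5, 63.4 and 90.9 CPM. Mmp23 overlaps Mib2 (57.5 CPM).

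Mgp held 98.1% ± 0.662 of the TPM of 12 genes that restrain or promote mineralization, and the next, Ank, which exports pyrophosphate, held 0.790%. Ccn2 (connective tissue growth factor) led the CCN proteins with 1335, 1535, 729 and 1846 CPM. Ccn1, an immediate early member of that family, had 773, 205, 145 and 178 CPM, and its level in WT_CD_1 was far above the other libraries, which lay close together. By TPM, the share of Ccn2 in the family was lowest in WT_CD_1, at 33.2%. Thrombospondins were shared between Comp, Thbs3 and Thbs2, and Comp, a cartilage-type member, had 48.9, 32.6, 24.6 and 68.7 CPM.

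Itga8 held 57.8% ± 3.83 of the TPM of 17 integrin alpha chains, with 2189, 2190.4, 744 and 1671 CPM, and Itgb1, its partner chain, held 63.8% ± 3.18 of the beta chains. Itga8 overlaps the non-coding gene E030013I19Rik, which had 406 CPM, so part of this level is uncertain without strand. Itga5, a fibronectin receptor chain, was the next alpha chain at 14.9%. Caveolae were represented by Cavin1 with 1162, 1136, 596 and 1139.9 CPM and Cav1 with 754, 858, 711 and 861 CPM. Cav1 was more even than Cavin1 and led its family in WT_CD_3, where Cavin1 was low. Gja4 and Gja1, connexins of endothelium and muscle, had 58.1, 35.05, 9.77 and 26.9 CPM and 168, 107, 97.99 and 90.02 CPM, and by TPM Gja4, the shorter gene, led except in WT_CD_3.

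The nitric oxide synthases were represented by the endothelial form. Nos3 had 7.70, 28.3, 23.99 and 29.9 CPM and held 98.8% ± 1.04 of the family; Nos2, the inducible form, had a mean of 0.362 CPM and Nos1, the neuronal form, had no count. Nos3 was lowest in WT_CD_1, as Pecam1 was. For Nos1, 0 counts allow a level of up to 0.385 CPM in the shallowest library. The receptor for nitric oxide, soluble guanylate cyclase, was present as its usual pair of subunits, Gucy1b1 with 89.97 ± 38.9 TPM and Gucy1a1 with 56.04 ± 28.5 TPM. Prkg1, the cyclic GMP kinase, had 59.9, 56.3, 25.7 and 40.2 CPM. Pde5a, which degrades cyclic GMP, had 178, 239.5, 105 and 174 CPM, but by TPM it led the phosphodiesterase list in WT_CD_2 alone. Pde6d led in WT_CD_1 and WT_CD_4, and Pde3b, an enzyme of fat cells, in WT_CD_3. By counts Pde5a was the higher, with a mean without WT_CD_3 of 197 CPM against 41.1 CPM for Pde6d. Pde6d overlaps Cops7b (13.8 CPM). The list was drawn by gene name, so a lead in it does not show that a member degrades cyclic GMP. Npr1, the membrane guanylate cyclase that binds atrial natriuretic peptide, held 71.5% ± 2.97 of its receptor family.

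In the angiotensin and endothelin systems the enzymes led by TPM. Ace (angiotensin-converting enzyme) had 188, 301, 157 and 274 CPM and held 93.1% ± 5.22 of the angiotensin list, and the receptor genes Agtr1a and Agtr1b had 2.18, 0.657, 3.13 and 1.97 CPM and 3.72, 0.876, 0.625 and 0.834 CPM. Ece1 and Edn1, the enzyme and ligand of the endothelin system, had 33.3 ± 9.89 TPM and 20.3 ± 5.998 TPM, and the receptor Ednra had 12.2, 3.61, 6.02 and 8.11 CPM. Adra1d, the alpha-adrenergic receptor of large arteries, had 56.1, 47.3, 28.9 and 39.97 CPM. It led the adrenergic receptors in WT_CD_1 and WT_CD_2, while Adrb3, the receptor of adipocytes, with 9.75, 40.2, 132 and 81.8 CPM, led in WT_CD_3 and WT_CD_4. Ptgis, the prostacyclin synthase, held 73.6% ± 8.75 of the prostanoid genes with 812, 1029, 384 and 969.9 CPM.

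Ion channels and pumps differed in how far 1 subunit led. Cacna1c, the pore of the L-type calcium channel, had 26.7, 24.2, 6.10 and 11.1 CPM and held 26.6% of its list, level with Cacna1d at 26.7%. Cacna1c overlaps Dcp1b (15.9 CPM), and Cacna1d overlaps Dcp1a (17.7 CPM) and Chdh (12.3 CPM), so both levels are uncertain. Kcnmb1, the auxiliary subunit of the large-conductance potassium channel, had 201, 238, 83.5 and 181 CPM and held 91.5% ± 0.531 of that channel's genes, in a range of 91.1% to 92.3%, the smallest SD among the 77 families. Abcc9 and Kcnj8, the regulatory and pore subunits of the vascular ATP-sensitive potassium channel, held 57.9% and 39.99%. Itpr1 held 66.4% ± 11.3 of the intracellular calcium release channels, and its share was lowest in WT_CD_3, where Itpr2 was highest with 52.8 CPM. Atp2a2, the calcium pump of the sarcoplasmic reticulum, held 66.7% ± 2.90 of the calcium pumps. Trpc2 led the TRPC channels with 9.75, 8.98, 5.86 and 7.66 CPM; it shares a locus with Xntrpc, so the gene identity is uncertain.

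Tgfb3 led the TGF-beta ligands with 170.2, 144, 65.3 and 167 CPM and 43.2% ± 3.34, ahead of Gdf10 and Tgfb2. No receptor of that superfamily dominated: Eng, Bmpr1a, Tgfbr2, Tgfbr1 and Acvrl1 each held 10% or more, up to 21.7% of the summed TPM. Vegfb had 61.2, 69.1, 141 and 95.6 CPM and Vegfd 143, 66.8, 32.5 and 95.3 CPM; Vegfd led in WT_CD_1 and Vegfb in the others. Vegfa, the main angiogenic ligand, had 20.7, 43.8, 141 and 58.7 CPM, highest in WT_CD_3 with the adipocyte genes. Nrp1 held 84.6% ± 4.52 of the VEGF receptors and neuropilins, and Kdr had 4.88, 1.86, 12.9 and 5.92 CPM. Pdgfrb, a receptor of mural cells and fibroblasts, had 313, 171, 79.3 and 159 CPM and its ligand Pdgfa 107, 97.8, 35.7 and 77.7 CPM. Notch2 and Notch3 held 50.2% and 32.9% of the Notch receptors, and Jag1, with 63.1, 29.7, 26.02 and 27.7 CPM, held 73.6% ± 11.5 of the ligands. Jag1 in WT_CD_1 lay above the other libraries, which were nearly equal.

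Position along the body axis is recorded in adult arteries by Hox genes, which keep the pattern set in the embryo. Transcripts came from the A, B and C clusters, and the D cluster was near the lowest levels counted. Hoxa5 held 51.5% ± 2.92 of the A cluster with 77.5, 45.6, 35.8 and 38.4 CPM, followed by Hoxa2 at 11.9%, and Hoxa3 had 53.1, 37.02, 20.7 and 23.4 CPM. Hoxb4 led the B cluster with 101, 50.4, 22.4 and 41.3 CPM and 26.9% ± 2.56, followed by Hoxb6 at 17.5%, and Hoxb2 had 49.4, 37.8, 15.2 and 31.1 CPM. Hoxc8 led the C cluster with 22.2, 10.8, 12.8 and 21.8 CPM. The leading D cluster members by TPM, Hoxd9 and Hoxd4, had means of 1.61 and 2.09 CPM. All 7 B cluster genes with a mean of 10 CPM or more were highest in WT_CD_1 and lowest in WT_CD_3, against 35.2% and 64.2% of all genes with such a mean. Hoxb4 overlaps Hoxb3, and Hoxa5 overlaps Hoxa3, in the annotation, so reads of neighbours cannot be fully told apart.

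**Figure D3:**
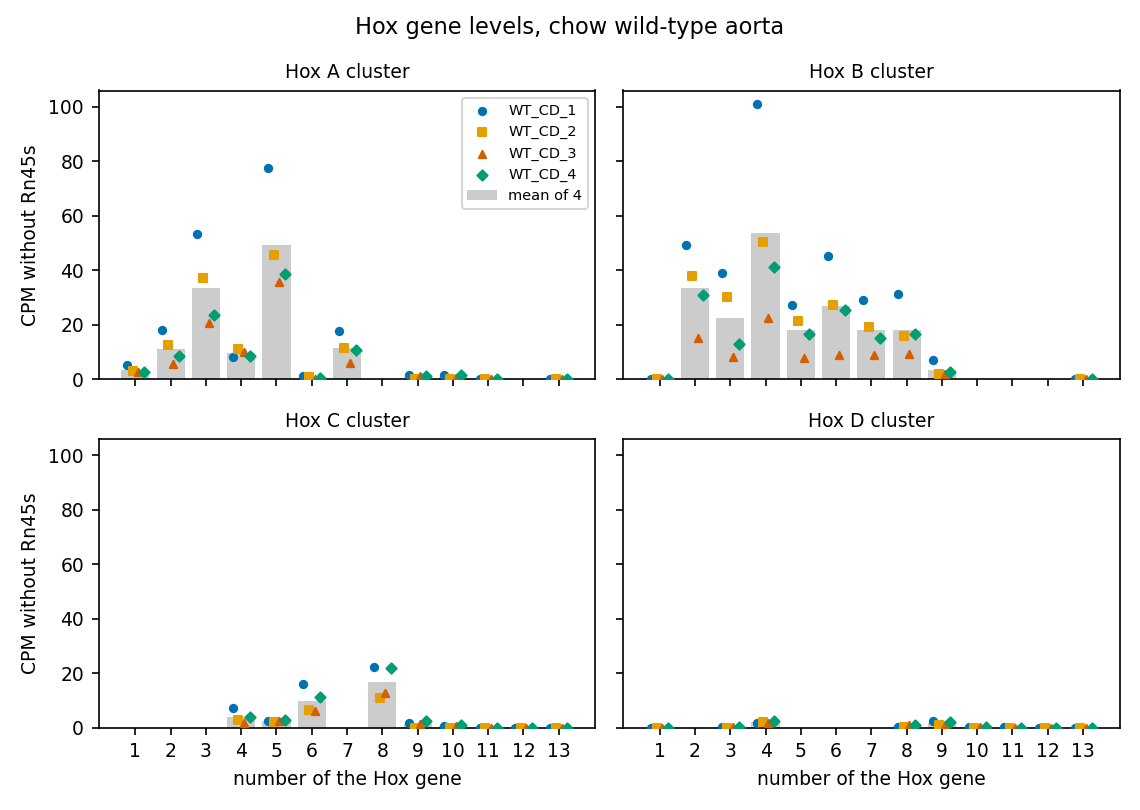
CPM without Rn45s of the Hox genes in the table, by cluster and gene number, with 1 point per library and a grey bar from 0 to the mean of 4 libraries. Hoxa5 and Hoxb4 are the highest of their clusters, WT_CD_1 is the highest library for most genes of the A and B clusters, and the D cluster stays close to 0.

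The plot of Hox gene levels shows the C cluster to be less tied to 1 library: Hoxc8 was high in WT_CD_1 and WT_CD_4 alike. Among other transcription factors, Tbx18 and Gata6, which mark mesenchymal and smooth muscle lineages, had 110.4, 77.3, 31.9 and 63.7 CPM and 97.1, 95.5, 34.9 and 65.7 CPM, and their order by TPM turned when length was left out or taken from the longest transcript. Mef2c held 65.6% ± 9.81 of the MEF2 factors. The Kruppel-like factors were shared, with Klf6 at 23.02% and Klf9 at 22.7%. Klf2, which responds to flow in endothelium, had 97.8, 74.8, 62.2 and 91.7 CPM.

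Some families of signal modulators had 1 leader and others changed it with the library. Igfbp7 held 84.04% ± 5.96 of the IGF binding proteins. Regulators of G protein signalling, which shorten the action of contractile receptors, were led by Rgs4 in WT_CD_1, WT_CD_2 and WT_CD_4, with 83.5, 95.3, 54.8 and 137 CPM, and by Rgs2 in WT_CD_3, with 67.6, 78.3, 235 and 107 CPM. Of the secreted Wnt inhibitors, Sfrp2 had 315, 234, 123 and 308 CPM and Dkk3 398, 451, 148 and 356 CPM, and Sfrp2 led by TPM except in WT_CD_2. Chemokines had no common leader: Cxcl12, a homing signal made by stromal cells, with 193, 121, 110.4 and 177 CPM, led in WT_CD_1 and WT_CD_2, Ccl11 in WT_CD_3 and Ccl6 in WT_CD_4.

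Sod3, the extracellular superoxide dismutase, had 1959, 1368, 737 and 1285 CPM and held 89.1%, 80.9%, 57.3% and 73.3% of its family, highest in WT_CD_1 and lowest in WT_CD_3. Nox4, the oxidase of smooth muscle, had 526, 549, 207 and 356 CPM and held 96.3% ± 1.19 of the NADPH oxidases. Cybb, the phagocyte oxidase, had 11.3, 7.45, 6.64 and 10.1 CPM. Gpx3, the secreted glutathione peroxidase, had 463, 448, 2148 and 940.4 CPM; it led in WT_CD_3 and WT_CD_4 and Gpx1 in WT_CD_1 and WT_CD_2.

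Of the enzymes of hydrogen sulfide and persulfides, Ethe1, a mitochondrial persulfide dioxygenase, led with 46.2, 45.9, 26.9 and 43.1 CPM, and Mpst, the sulfurtransferase the series deletes in its knockout, had 39.1, 29.02, 36.8 and 40.3 CPM. Mpst was even across libraries, with a coefficient of variation (CV) of 14.002%. Sqor, which oxidizes sulfide, had 39.9, 50.4, 83.7 and 69.8 CPM and led the list in WT_CD_3. Cth and Cbs, the enzymes of transsulfuration, had 2.82, 0.876, 1.95 and 1.52 CPM and 6.16, 4.16, 1.09 and 3.94 CPM. Mpst overlaps the predicted gene Gm52185.

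Genes of energy metabolism changed leader between libraries in several families. Slc2a1, the basal glucose transporter, led in WT_CD_1, and Slc2a4, the insulin-responsive transporter of fat and muscle, led in the others with 25.7, 74.9, 252 and 101 CPM. Ldhb led the lactate dehydrogenases in WT_CD_1 and Ldha, with 232, 467, 1154 and 585 CPM, in the others. Ckb held 93.6% ± 3.996 of the creatine kinases. Fabp4, the fatty acid binding protein of adipocytes and some endothelium, had 613, 2858, 9918 and 4674 CPM and held 87.8% ± 7.59 of its family. Apoe, made by macrophages and other cells, had 577, 390.2, 915 and 1118 CPM and was exceeded by Clu (clusterin) in WT_CD_2.

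Transcripts of cells other than those of the wall were present in varying amounts. The summed level of 10 smooth muscle markers was 41132, 43885, 14819.7 and 38535 CPM, and that of 15 endothelial markers 318, 624, 572 and 642 CPM. White adipocyte markers summed to 1139, 4343, 15070.4 and 8524 CPM in vessels cleared of perivascular fat, a span of 13.2-fold. Adipoq (adiponectin), made by adipocytes, had 40.3, 183, 731 and 485 CPM, Plin1, the coat protein of lipid droplets, 17.6, 97.6, 478 and 206 CPM, and Cfd (adipsin) 151, 222, 838 and 1241 CPM. Ucp1, the uncoupling protein of brown fat, had 20.02, 336, 1291 and 232 CPM, and Cidea 56.8, 411, 1685 and 692 CPM. In these genes WT_CD_1 was lowest, and WT_CD_3 was highest in all except Cfd, which was highest in WT_CD_4.

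**Figure D4:**
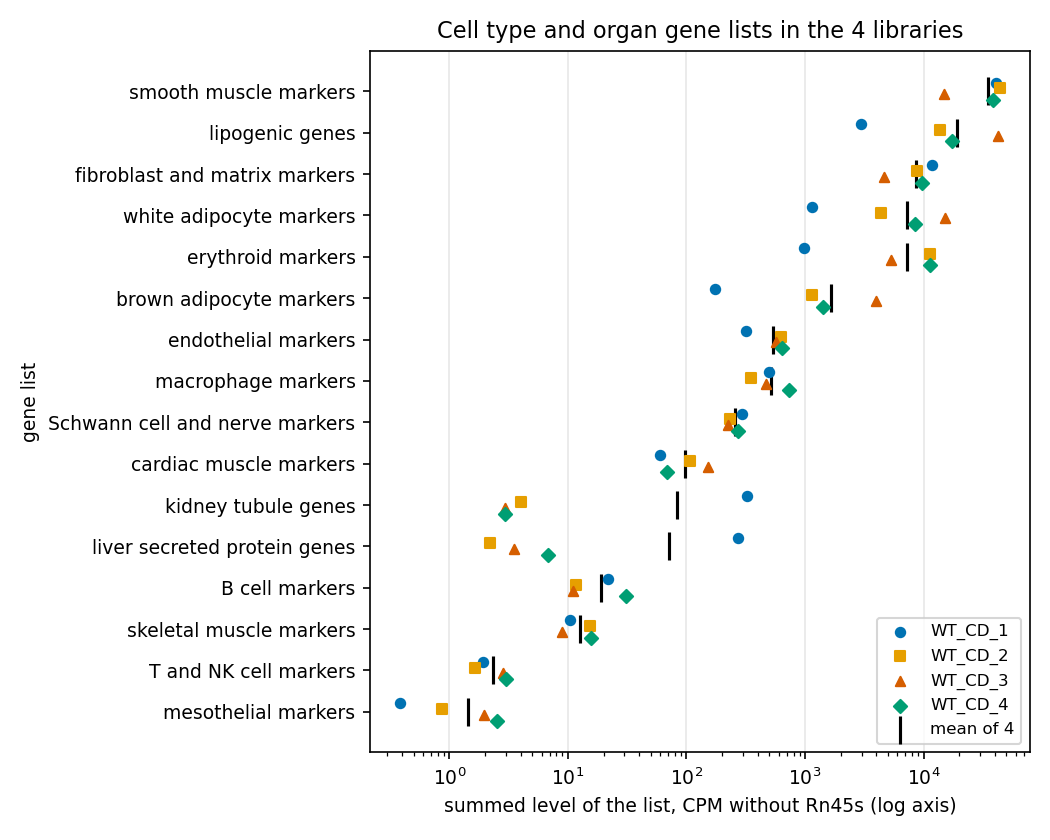
Summed CPM without Rn45s (log axis) of each cell type or organ list, with 1 point per library and a bar at the mean of 4 libraries. Adipocyte and lipogenic lists run from WT_CD_1 at the low end to WT_CD_3 at the high end, the smooth muscle sum is lowest in WT_CD_3, and kidney and liver lists are high in WT_CD_1 alone.

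The plot of summed marker lists also shows which cell types were scarce. Red cell markers summed to 972, 11247, 5359.6 and 11242 CPM, lowest in WT_CD_1. Macrophage markers summed to 495, 351, 471 and 733 CPM, with Lyz2 and C1qa (lysozyme and a complement component) at 143 ± 53.6 CPM and 101 ± 30.7 CPM. The 7 genes of antigen presentation by MHC class II, a list added after values were seen, summed to 171, 123, 247 and 434 CPM, highest in WT_CD_4. Schwann cell and nerve markers summed to 292, 234, 223 and 272 CPM, of which Pmp22, also expressed outside nerve, made up the larger part with 261, 201, 136 and 213 CPM. S100b, a glial protein also made by adipocytes, ran the other way with 12.2, 18.6, 57.3 and 28.4 CPM, and the median over the 3 members at 10 CPM or more was highest in WT_CD_3, at 0.82 from the gene's mean log2 CPM.

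Lymphocyte and surface cell markers were low. T and NK cell markers summed to 1.92, 1.64, 2.81 and 3.03 CPM, with none of the 8 at a mean of 1 CPM, and B cell markers summed to 21.8, 11.7, 11.02 and 31.02 CPM, highest in WT_CD_4. Most of that sum was Ighm, the immunoglobulin mu chain, with 15.8, 8.87, 9.14 and 20.9 CPM, and Cd79a, a part of the B cell receptor, had a mean of 0.569 CPM. Mesothelial markers summed to 0.385, 0.876, 1.95 and 2.50 CPM, and Muc16 had no count. Th and Dbh, the noradrenaline enzymes of sympathetic nerves, had means of 0.0321 and 0.0510 CPM; their mRNA is made in cell bodies outside the vessel. Heart markers summed to 59.7, 107, 151 and 68.8 CPM. Myh6, the atrial and ventricular myosin chain of the mouse heart, had 1.03, 6.68, 23.6 and 0.683 CPM and Myl7, an atrial light chain, 0.898, 4.71, 11.8 and 0.531 CPM, both highest in WT_CD_3. Of the 3 heart markers with a mean of 10 CPM or more, Tnnt2 had 11.04, 22.01, 21.6 and 20.2 CPM and Ryr2, a calcium release channel also found in smooth muscle, 31.4, 51.5, 18.9 and 31.02 CPM, both highest in WT_CD_2. Skeletal muscle markers summed to 10.4, 15.2, 8.91 and 15.7 CPM, with Ckm at 3.98, 10.1, 5.24 and 8.34 CPM.

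The spread between the 4 libraries was wide for replicates of 1 group. Of the 9036 genes with a mean of 10 CPM or more, 2840 (31.4%) differed at least 2-fold between the highest and lowest library, 335 at least 5-fold and 128 at least 10-fold. The median CV was 21.6%, with an interquartile range of 14.6% to 32.1%, and the biological coefficient of variation from edgeR's common dispersion was 31.7%. WT_CD_3 was the lowest library in 62.9% of the genes with a 2-fold spread, close to its 64.2% of all 9036 genes, and WT_CD_1 the highest in 42.7%, against 35.2% of all. Of all 9036 genes, 18.5% were highest in WT_CD_3 and 23.9% lowest in WT_CD_1, and list counts are set beside these shares. Without WT_CD_3, 771 genes had a 2-fold spread and the biological coefficient of variation was 22.6%.

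The spread was ordered by gene list. The position of a library in a list is given as the median over members of log2 CPM minus the gene's own mean, with members at a mean of 10 CPM or more. Smooth muscle markers lay at 0.32, 0.48, -0.99 and 0.27, against 0.10, 0.09, -0.28 and 0.08 for all genes. Fibrillar collagens lay at 0.60, 0.23, -0.92 and 0.09 and the Hox B cluster at 0.89, 0.24, -1.04 and -0.01. White adipocyte markers ran the other way, at -2.33, -0.22, 1.57 and 0.96. Genes of fatty acid synthesis, a list added after values were seen, lay at -1.89, 0.03, 1.58 and 0.25, and all 10 were highest in WT_CD_3, against 18.5% of all genes. Fasn, the fatty acid synthase, had 608, 2435, 8798 and 2944 CPM.

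Respiratory chain genes of the nucleus lay at -0.84, -0.11, 0.81 and 0.19: 81 of 95 were highest in WT_CD_3 and 91 were lowest in WT_CD_1, against 18.5% and 23.9% of all genes. The protein genes of the mitochondrial genome lay at 0.23, -0.65, 0.77 and -0.34, so they shared the high place of WT_CD_3 but not the low place of WT_CD_1. Cytoplasmic ribosomal protein genes were taken by symbol alone, Rpl or Rps followed by a digit. That rule leaves out Rplp1 and does not exclude kinases named Rps6k. Of the genes so taken, 13 of 83 had a 2-fold spread, or 15.7% against 31.4% of all genes. Their median CV was 23.7% against 21.6%. Of the 83, 80 were lowest in WT_CD_3, as 64.2% of all genes were. Housekeeping genes lay at -0.11, 0.02, -0.14 and 0.20, with Eef1a1 at 2608, 2823, 2138 and 3058 CPM and B2m at 665, 671, 733 and 856 CPM. WT_CD_3 was highest for adipocyte and mitochondrial transcripts and lowest for smooth muscle transcripts, and what each of these contributed to the others was not tested.

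**Figure D5:**
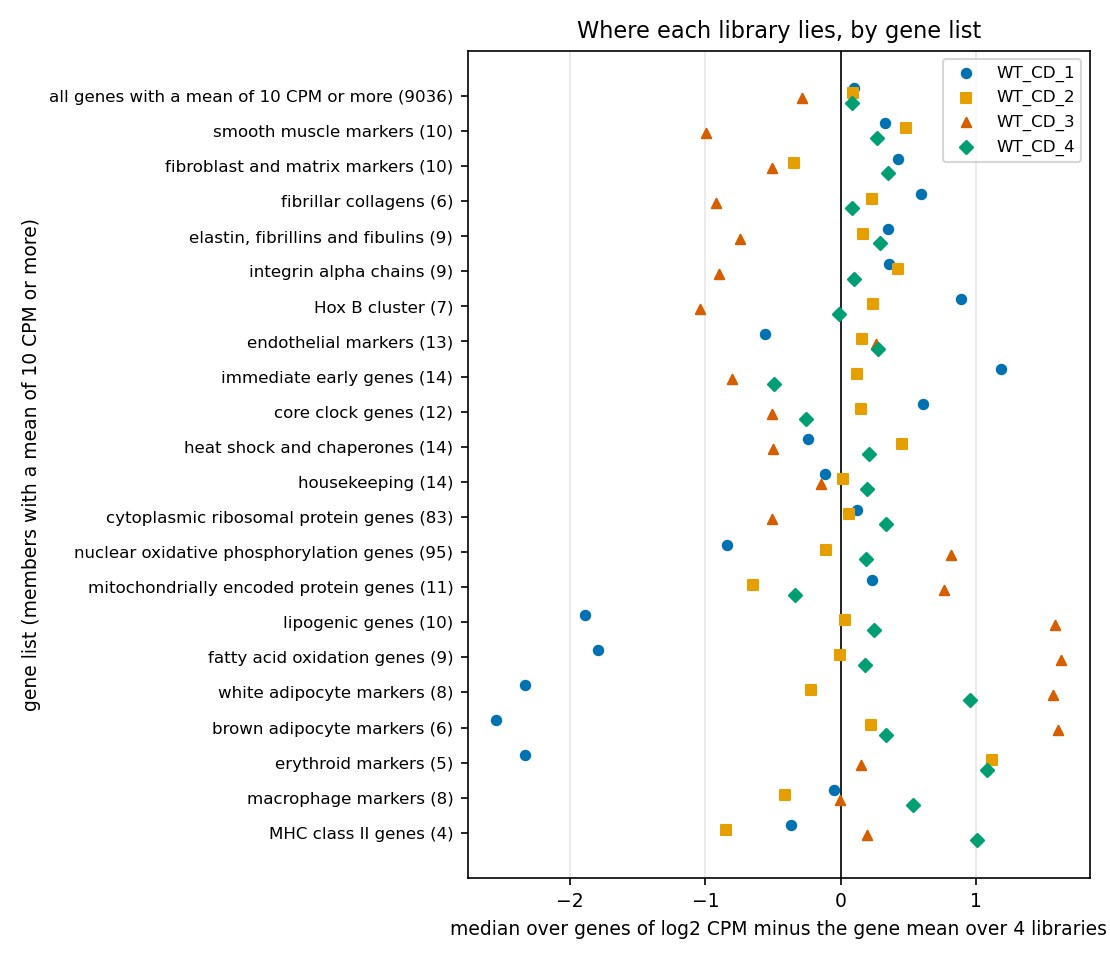
Median over list members of log2 CPM minus the gene's mean over the 4 libraries, with 1 point per library and members counted in brackets. WT_CD_3 lies left of 0 for muscle, matrix and Hox lists and right of 0 for adipocyte, lipogenic and respiratory lists, WT_CD_1 mirrors it in the adipocyte lists and leads the immediate early and clock lists.

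WT_CD_1 had its own marks, visible in the plot of list positions. Immediate early genes, transcription factors and regulators induced rapidly by a stimulus, lay at 1.19, 0.12, -0.80 and -0.49, and 12 of 14 were highest in WT_CD_1, against 35.2% of all genes. Fos had 443, 87.9, 17.6 and 11.98 CPM, Egr1 198, 83.6, 43.3 and 44.9 CPM, Nr4a1 233, 40.6, 40.4 and 44.6 CPM and Dusp1, a phosphatase of that group, 647, 220.5, 84.6 and 146 CPM. WT_CD_2 held the next highest level of Fos and Egr1, and WT_CD_3 and WT_CD_4 were low. Clock genes lay at 0.61, 0.15, -0.51 and -0.26. Dbp, a clock output factor, had 508, 200.4, 157 and 168 CPM, and Nr1d1, the clock repressor REV-ERB alpha, 191, 67.2, 67.05 and 42.6 CPM, both highest in WT_CD_1, while Bmal1 was low and even at 1.15, 1.42, 1.48 and 1.37 CPM. Dbp overlaps Sphk2 (30.9 CPM) and Nr1d1 overlaps Thra (61.97 CPM). Heat shock genes lay at -0.24, 0.45, -0.50 and 0.21, with WT_CD_2 highest for Hspa1a at 51.1, 135, 27.6 and 51.04 CPM.

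Transcripts of kidney and liver were found in WT_CD_1. These lists were put together after values were seen, starting from Kap, Slc34a1 and Alb, which were among the genes of widest spread. All 12 kidney tubule genes were highest in WT_CD_1, and their sum was 323, 4.05, 2.97 and 2.96 CPM. Of all genes with a mean of 10 CPM or more, 35.2% were highest there, but only 2 of the 12 reached that mean. Kap (kidney androgen-regulated protein) had 198, 0.986, 1.17 and 0.758 CPM, Slc34a1, the phosphate transporter of the proximal tubule, 42.2, 0.329, 0.313 and 0.228 CPM, and Umod, of the thick ascending limb, 13.6, 0, 0.0781 and 0 CPM. All 13 liver genes were highest there too, with a sum of 269.9, 2.19, 3.52 and 6.83 CPM, and 1 of the 13 reached a mean of 10 CPM. Alb (albumin) had 104, 0, 0.156 and 0.986 CPM, Serpina3k 23.7, 0.219, 0.156 and 0.910 CPM and Apoa1 28.7, 0.110, 0 and 0.531 CPM. Outside WT_CD_1, no kidney gene exceeded 1.31 CPM and no liver gene 1.67 CPM. Their part in the other marks of WT_CD_1 was not tested.

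The other genes of widest spread, by edgeR tagwise dispersion, followed the adipocyte pattern or the ribosomal one. Ucp1, Cidea, Ucp3, Pck1, Pdk4, Otop1, Nrg4, Plin5, Plbd1, Klhdc7a, Poln, Lgals12, Ces1d and Prkar2b were lowest in WT_CD_1 and highest in WT_CD_3. Pck1, an enzyme of glyceroneogenesis in fat, had 43.4, 369.7, 1636 and 955 CPM, and Pdk4, which restrains glucose oxidation, 30.7, 405, 1284 and 407 CPM. Prkar2b, a regulatory subunit of the cyclic AMP kinase, had 16.9, 118, 512 and 169 CPM and led its family in WT_CD_3. Rpph1, the RNA of ribonuclease P, had 13.9, 24.5, 1.64 and 0.834 CPM, with WT_CD_1 and WT_CD_2 high and WT_CD_3 and WT_CD_4 low, as for Rn18s.

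At the other end, the 10 genes of smallest dispersion with a mean of 50 CPM or more included Cul4a, Grb14, Tfg, Tsc2, Gramd1a, Smarcd2, Bet1l, Chmp2b and Ccnl1. Tfg, a protein of transport from the endoplasmic reticulum, had 54.3, 55.7, 55.2 and 55.6 CPM, a CV of 1.19%. Cul4a, a scaffold of a ubiquitin ligase, had 52.5, 53.3, 54.2 and 51.2 CPM. For these genes the highest library exceeded the lowest by at most 1.14-fold. They were picked for small dispersion over these same libraries, so a narrow range, with WT_CD_3 not set apart, followed from the choice. Their means lay between 50.6 and 55.97 CPM, close to the minimum set for this list; edgeR draws each dispersion toward a trend over level. Genes of higher level could have a small CV as well, such as Cav2, a caveolin, at 147 ± 9.21 CPM and 6.25%.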

How the data were processed

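Whole-number read counts per gene under Entrez IDs were deposited by the authors without normalization, 1 column per library. Per the submitters' processing notes, the authors used Trimmomatic 0.39, HISAT2 2.2.1 and featureCounts 2.0.3 with GRCm38/mm10. Strand use, the handling of reads with several alignments and the annotation are not given in the sources used here. Overlapping and near-identical genes are therefore uncertain. Only some of them are named as such, and a gene given without an overlap may still have one.

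Here the 4 WT_CD columns were scaled to CPM without Rn45s, and to TPM with exon lengths from GENCODE M21, which gave a length to 24069 of 27179 genes. Positions and printed sequences are from RefSeq GRCm38.p6 or GENCODE M21. Dispersion came from edgeR 4.0.16 in R 4.3.3 with an intercept-only model, tested on simulated data; DESeq2 1.42.0 size factors were an alternative, and other steps used Python 3.11.15 with pandas 2.3.3, numpy 2.4.6 and matplotlib 3.10.9. No test between groups was made, and floors of 3 counts cover counting error only.

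Named genes were the 20 nuclear and 10 mitochondrial genes of highest TPM, the first and next member of each family and any with 10% or more of it, the 20 of largest and 10 of smallest dispersion, cell type markers, Mpst, and the 3 highest members of each cell type or function list. Rn18s, Lars2, Scd1 and Fasn, the kidney, liver, lipogenic, fatty acid oxidation and MHC class II lists, and other members quoted as illustrations of a list were chosen after their values were seen. Members and all lists were chosen with earlier results of these data known. Sequences of the Tagln, Myh11 and Eln promoters were not used here, and some named genes are not reported here.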

Additional observations from a re-analysis of the deposited data

Results flagged for a closer look

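In each group of 4 libraries, a value was picked out where the highest or lowest library lay so far from its nearest neighbour that the gap divided by the whole range passed Dixon's 95% critical value. Chance picks out about 1 in 20 groups. Of 317 named genes, 26 (8.20%) were picked out, and of all genes with a mean of 10 CPM or more, 481 (5.32%). Values of the library that stood apart are given first, then the range of the other 3.

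WT_CD_3 stood low in 14 named genes, among them genes of smooth muscle and its actin cytoskeleton, which are frequent among the named genes by choice. It was the lowest library in 64.2% of all genes with a mean of 10 CPM or more. How many of all genes were picked out as low there was not counted. The values were for Tagln (3489 CPM against 9876 to 10866), Tmsb4x (2207 CPM against 5320.1 to 5879), Myl9 (1743 CPM against 4844 to 5426), Myl6 (1526 CPM against 3633 to 4014), Igfbp7 (1031 CPM against 2793 to 3067), Tpm1 (792 CPM against 1733 to 1898), Cavin1 (596 CPM against 1136 to 1162), Tagln2 (269 CPM against 507 to 551), Fbln5 (222 CPM against 423 to 451), Rhoa (295 CPM against 368 to 380.2), Itga9 (151 CPM against 343 to 355), Tpm4 (179 CPM against 236 to 247), Thbs3 (29.2 CPM against 73.4 to 76.9) and Ethe1 (26.9 CPM against 43.1 to 46.2).

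WT_CD_1 stood high in 9 named genes, among them those of kidney and liver, the clock and the immediate early response. It was the highest library in 35.2% of all genes with a mean of 10 CPM or more. How many of all genes were picked out as high there was not counted. The values were for Ccn1 (773 CPM against 145 to 205), Dbp (508 CPM against 157 to 200.4), Nr1d1 (191 CPM against 42.6 to 67.2), Kap (198 CPM against 0.758 to 1.17), Jag1 (63.1 CPM against 26.02 to 29.7), Alb (104 CPM against 0 to 0.986), Slc34a1 (42.2 CPM against 0.228 to 0.329), Agtr1b (3.72 CPM against 0.625 to 0.876) and Th (0.128 CPM against 0).

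WT_CD_1 stood low for Tnnt2, a cardiac troponin, at 11.04 CPM against 20.2 to 22.01 CPM. WT_CD_4 stood high for Hoxd4 at 2.58 CPM against 1.88 to 1.97 CPM. WT_CD_3 stood high for Myh4 at 0.0781 CPM with 0 in the other libraries, and this and the value for Th were each a single count.

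Among summed lists, WT_CD_3 stood low for myosin light chains (3726 CPM against 9186 to 9596), tropomyosins (1859 CPM against 4331 to 4584), transgelins (3758 CPM against 10428 to 11415), serum response factor and coactivators (110.4 CPM against 189 to 196), beaded filament and other collagens (1079 CPM against 2351 to 2589.9), Wnt inhibitors of the secreted frizzled and Dkk type (403 CPM against 886 to 927) and secreted aortic products (12168 CPM against 24304 to 25225). WT_CD_1 stood high for Notch ligands (73.4 CPM against 35.05 to 39.3), kidney tubule genes (323 CPM against 2.96 to 4.05) and liver secreted protein genes (269.9 CPM against 2.19 to 6.83).

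Among family shares of summed TPM, WT_CD_3 stood apart for Actn1 among alpha-actinins (48.7% against 52.5% to 52.7%), Lamb2 among laminin chains (54.99% against 65.6% to 67.2%), Tgfb3 among TGF-beta ligands (38.2% against 44.5% to 45.5%) and Rgs2 among regulators of G protein signalling (56.8% against 20.6% to 24.7%). WT_CD_1 stood apart for Vim among intermediate filaments (94.996% against 93.9% to 93.97%), Col1a2 among fibrillar collagens (28.9% against 33.3% to 33.8%), Hspg2 among large proteoglycans and link proteins (85.01% against 72.5% to 74.5%) and Fabp4 among fatty acid binding proteins (76.4% against 90.8% to 92.6%).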

How the results depend on the processing

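The count of genes with a 2-fold spread depended on WT_CD_3 and on the minimum level. It was 2840 with all libraries, 771 without WT_CD_3 and between 771 and 2715 when each library was left out in turn, and it was 5131 at a mean of 1 CPM or more and 1299 at 50 CPM or more, where more or fewer genes are counted. The biological coefficient of variation ran from 22.6% without WT_CD_3 to 37.2% without WT_CD_4. With the mitochondrial genome left out, 663 genes held 50% of the counts, and the mitochondrial share itself then has no value.

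On leaving out each library in turn, the number of genes at a mean of 1 CPM stayed between 13008 and 13172, the genes holding 50% of the counts between 370 and 434, the mitochondrial share between 12.1% and 16.9%, and the families led by 1 member between 52 and 58. With Rn45s kept, with TMM factors, with DESeq2 size factors or with Rn18s and Lars2 also left out, an alternative chosen after seeing the data, the counts they could give kept within the margin of 1.5 times. The log2 ratio of the leading over the next member turned negative for Ppp1r14a over Ppp1r12a (-0.62), Mfap4 over Ltbp4 (-0.29), Timp2 over Timp3 (-0.60), Gucy1b1 over Gucy1a1 (-0.11) and Tbx18 over Gata6 (-0.074) without length, and for Timp2 over Timp3 (-0.25) and Tbx18 over Gata6 (-0.38) with the longest transcript as length. Of the 323 named gene levels, 11 moved by more than 1 SD with Rn45s kept and 29 with the mitochondrial genome left out, where the total that sets CPM changes.

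No paired analysis was possible because a single group was described and nothing was compared. Counts near 3 per library limit what can be said of genes under 0.385 CPM.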

Other observations

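Beyond the lists above, genes of the secretory output of the wall were abundant. Sparc (osteonectin, a collagen-binding protein) had 2994, 2687, 1462 and 3369 CPM, Fn1 (fibronectin) 1095, 1617, 741 and 1501 CPM, Aebp1, which binds collagen, 1216, 998, 439.8 and 941 CPM, and Serping1, the inhibitor of complement C1, 730.2, 404, 409 and 738 CPM. Sparc and Aebp1 were lowest in WT_CD_3, and Serping1 was low in both WT_CD_2 and WT_CD_3. The 10 fibroblast and matrix markers summed to 11696, 8753, 4629 and 9679.5 CPM. Of these 10, 6 were lowest in WT_CD_3, near the 64.2% of all genes with a mean of 10 CPM or more. Another count, 6 of 10 highest in WT_CD_4, stands against 20.3% of all such genes. Of the adventitial members, Pi16 had 284, 281, 384 and 592 CPM and Dpt (dermatopontin) 191, 131, 193 and 381 CPM, both highest in WT_CD_4. Fatty acid oxidation genes, a list added after values were seen, summed to 772, 2724, 8873 and 3242 CPM, and Acadvl, the very long chain acyl-CoA dehydrogenase, had 141, 482, 1514 and 597 CPM, while Cpt1b, the muscle form of carnitine palmitoyltransferase, had a mean of 0.104 CPM.

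Gapdh, a glycolytic enzyme used widely as a reference gene, had 14.4, 25.5, 50.4 and 23.8 CPM, highest in WT_CD_3. This is a low count for so widely expressed a gene; how reads with several alignments were counted is not stated, its level is uncertain, and the cause was not tested. Eef2, a translation factor, had 1192, 1185, 930.3 and 1341 CPM and Ppia (cyclophilin A) 428, 583, 468 and 566 CPM.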
